A study of Homo sapiens with 13 samples.

Results

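The loci of 10 circadian clock genes, PER1, PER2, PER3, CRY1, CRY2, BMAL1, NR1D1, NR1D2, DBP and CIART, held 38 of the 129347 chromatin accessibility peaks measured in this series. A peak was counted for a gene when it overlapped the gene body extended by 10 kb on each side. Of the 38 peaks, 12 contained an annotated transcription start site (TSS) of a clock gene, 7 contained the TSS of a neighbouring gene and 19 contained no TSS. Over the whole series 16131 peaks contained a TSS and 113216 did not.

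The cells were T98G, an established line from a human glioblastoma, and accessibility was measured by ATAC-seq, in which a transposase cuts and tags DNA that is not shielded by nucleosomes. G1 cells (3 libraries) had been serum starved for 72 h. M-phase cells (3 libraries) had been serum starved for 48 h, released for 36 h into serum-containing medium with nocodazole, which blocks the mitotic spindle, and collected by shaking off rounded cells. Each M-phase library was sequenced on a HiSeq and again on a NextSeq, whereas the G1 libraries were sequenced on a HiSeq only. The table has 1 column per M-phase replicate, whose name matches both runs, and it was taken to join them, though no source used here says so. Phase, serum release and drug cannot be told apart, nor can the sequencing platform if the runs were joined. Nothing says that the replicates came from separate cultures, so p-values measure only the spread between these libraries. As these are bulk libraries, a site open in more cells and a site more open in each cell cannot be told apart. Chromatin fraction and input samples of the series were not used here.

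The mammalian clock is a transcriptional feedback loop. BMAL1, paired with CLOCK, binds E-boxes and activates the PER and CRY genes, NR1D1, NR1D2, DBP and CIART. PER and CRY proteins, and CIART, repress the BMAL1-CLOCK pair, NR1D1 and NR1D2 (REV-ERB alpha and beta) repress BMAL1 through ROR elements, and DBP drives output genes through D-boxes. In cultured cells a serum pulse is widely used to set the phase of this loop, and PER1 is known as an early responder to serum and cAMP signals, the latter through a cAMP response element (CRE).

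The promoters below are examples that hold the letters of an E-box, E′-box or D-box. PER2 and CRY2 also hold an E′-box and are not printed. Each stretch lies within the 300 bases before the canonical start of the gene in the GRCh37 genome, is written 5′ to 3′ along the gene, and leaves out annotated exons. Capitals mark the E-box CACGTG in PER1 and CIART, the E′-box CACGTT, which reads AACGTG on the printed strand, in CRY1 and NR1D1, and the D-box TTANGTAA in PER3.
PER1 promoter, chr17:8055754-8056022, minus strand: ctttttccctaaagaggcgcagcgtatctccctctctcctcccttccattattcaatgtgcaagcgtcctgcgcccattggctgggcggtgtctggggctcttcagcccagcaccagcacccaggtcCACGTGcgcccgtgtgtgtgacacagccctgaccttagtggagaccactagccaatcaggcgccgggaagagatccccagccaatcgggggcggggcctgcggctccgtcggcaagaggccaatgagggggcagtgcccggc
CIART promoter, chr1:150254664-150254952, plus strand: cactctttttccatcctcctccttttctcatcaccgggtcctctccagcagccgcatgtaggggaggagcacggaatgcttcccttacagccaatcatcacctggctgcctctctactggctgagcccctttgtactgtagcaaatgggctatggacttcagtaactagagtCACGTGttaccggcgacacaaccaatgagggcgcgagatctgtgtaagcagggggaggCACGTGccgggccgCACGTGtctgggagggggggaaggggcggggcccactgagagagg
CRY1 promoter, chr12:107487328-107487627, minus strand: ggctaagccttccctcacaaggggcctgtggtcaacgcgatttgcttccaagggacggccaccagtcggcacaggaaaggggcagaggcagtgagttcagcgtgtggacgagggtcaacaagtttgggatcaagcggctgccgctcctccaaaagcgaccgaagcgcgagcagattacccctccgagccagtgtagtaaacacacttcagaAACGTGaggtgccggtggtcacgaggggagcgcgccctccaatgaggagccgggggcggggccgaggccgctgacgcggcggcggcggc
NR1D1 promoter, chr17:38256843-38257142, minus strand: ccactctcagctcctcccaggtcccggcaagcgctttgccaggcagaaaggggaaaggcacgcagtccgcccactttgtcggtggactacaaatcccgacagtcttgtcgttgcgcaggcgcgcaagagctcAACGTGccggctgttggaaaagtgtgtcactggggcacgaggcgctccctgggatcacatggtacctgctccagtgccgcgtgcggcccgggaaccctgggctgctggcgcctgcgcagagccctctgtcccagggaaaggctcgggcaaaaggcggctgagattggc
PER3 promoter, chr1:7844051-7844350, plus strand: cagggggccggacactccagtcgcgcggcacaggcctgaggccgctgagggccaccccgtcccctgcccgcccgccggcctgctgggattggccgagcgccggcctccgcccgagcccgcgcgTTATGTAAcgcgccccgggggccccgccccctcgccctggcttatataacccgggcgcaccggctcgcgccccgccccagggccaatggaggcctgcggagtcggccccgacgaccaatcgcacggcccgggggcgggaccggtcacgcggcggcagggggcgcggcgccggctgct

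CIART carried 3 E-boxes, whose first bases lay at -128, -70 and -56 from the start, and PER1 carried 1 at -173. An E-box was found in 2 of the 10 clock gene promoters and in 8.89% of 19881 protein-coding promoters of the same length, counting both strands. The E′-box was found in 4 of 10 (PER2 at -197, CRY1 at -89, CRY2 at -188 and NR1D1 at -168) and in 5.58% of all promoters. The D-box was found in PER3 alone of the 10, at -177, and in 1.77% of all promoters. The ROR element TAGGTCA was found in CRY2 alone of the 10, at -65, and in 1.47% of all promoters. The CRE TGACGTCA and the CArG box were found in 0 of 10, and in 2.57% and 1.4% of all promoters. In the 1000 bases centred on each of the 12 clock gene TSS peaks, 5 held an E-box (19.2% of all 16131 TSS peaks), 6 an E′-box (17.6%), 4 a D-box (4.33%) and 3 a ROR element (4.22%). In the whole NR1D1 peak, 2462 bp wide, there were 4 E-boxes and 3 E′-boxes. A match describes the letters only, and wider peaks hold more of them.

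Values are given as scaled counts, the number of reads in a peak after the authors scaled each library down to the smallest one. The sum over all peaks was 4191845 to 5092426 in the G1 libraries and 5475345 to 6000423 in the M-phase libraries. In these units 1 read was worth 0.781 to 1 in G1 and 0.412 to 0.481 in M-phase, so the M-phase values rest on more reads. A TSS peak was present at VIM (272 in G1 and 961 in M-phase on average) and CD44 (155 and 206), markers of mesenchymal glioma lines, whereas SOX2 was low (11.6 and 7.70) and NES, GFAP and S100B had no TSS peak. Of the markers of other cell types, PTPRC, CD3E, CDH1 and ALB had no TSS peak and EPCAM had one (91.6 and 107).

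Each peak was given a log2 difference, M-phase minus G1, after 8 was added to its scaled counts. The test was that of limma, with p-values adjusted over all 73121 peaks that passed a filter on low values. All 12 clock gene TSS peaks passed the filter, as did 7 of 7 neighbour TSS peaks and 15 of 19 peaks without TSS. In each of the 12 clock gene TSS peaks the lowest M-phase library lay above the highest G1 library, which held for 48.5% of all tested TSS peaks. At an adjusted p under 0.05, 11 of the 12 rose in M-phase and 0 fell, while among all 15500 tested TSS peaks 43.2% rose and 5.94% fell. Among all tested peaks 14.3% rose and 13.1% fell. The median log2 difference was 0.96 over the 12 clock gene TSS peaks (0.43 to 1.43, a median 1.95-fold ratio of mean counts), 0.39 over all TSS peaks and 0.02 over all tested peaks. The clock gene TSS peaks were also higher and wider than most, with a median mean count of 352 and a median width of 1477.5 bp against 143 and 1152 bp for all TSS peaks. Under a loess scaling fitted on abundance, 4 of the 12 rose, and the direction turned at PER3 and at the canonical DBP start.

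**Figure D1:**
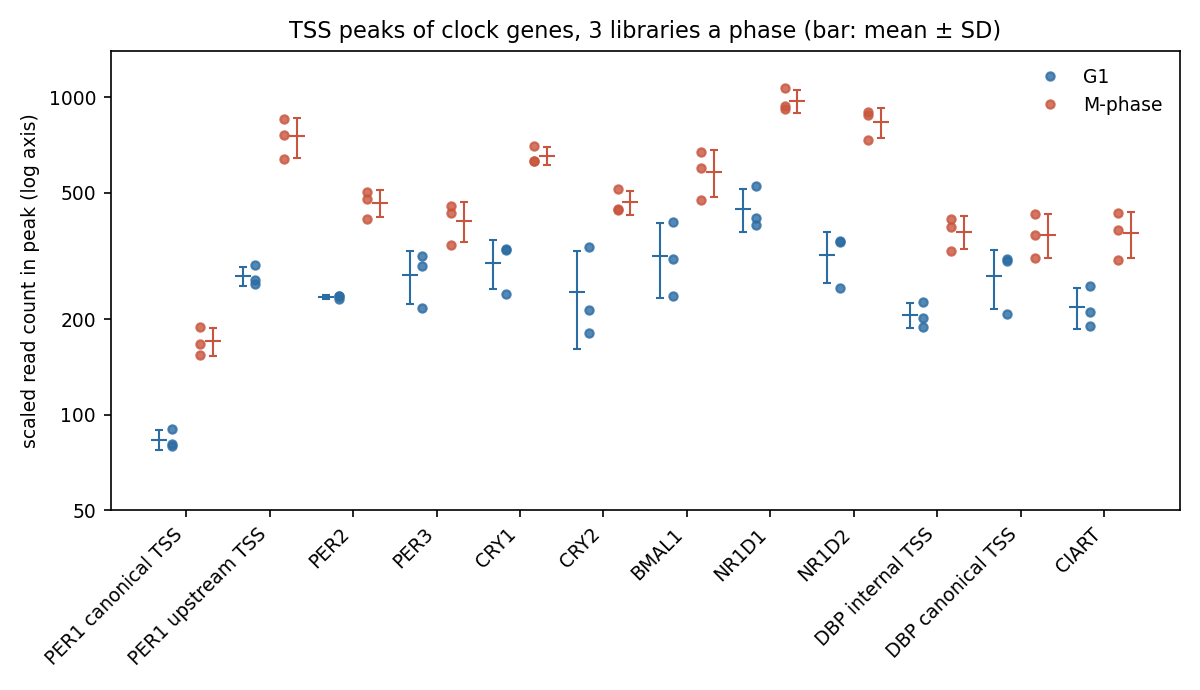
Scaled counts (vertical axis, log scale) of the 12 clock gene TSS peaks, with a point for each of 3 G1 and 3 M-phase libraries and, beside them, a bar for the mean ± SD. With the authors' scaling the 3 M-phase points lie above the 3 G1 points in every peak, with the largest ratio of means at the upstream PER1 start (2.76-fold) and the smallest at the canonical DBP start, which turns direction, as does PER3, under the loess scaling.

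BMAL1, the activator of the loop, had a TSS peak at chr11:13298421-13300270. It held 308.2, 236.7 and 405 scaled counts in G1 and 475.8, 599.5 and 671.7 in M-phase, so the groups did not overlap although the G1 libraries were spread widely. The mean went from 317 ± 84.5 to 582 ± 99.1 (SD, n = 3 libraries each), a log2 difference of 0.88 (SE 0.17, adjusted p from limma = 2.56e-05). The whole peak held 1 ROR element, outside the 300 bases before the start, 1 E′-box and no E-box.

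PER1, a repressor of the loop, had TSS peaks at its canonical start and at a start of longer transcripts about 4 kb upstream. The canonical peak, chr17:8055557-8055932, held 79.5, 80.5 and 90 in G1 and 167.3, 154.1 and 189.1 in M-phase. It contains the E-box printed above and was the lowest of the 12 in count. Its mean rose from 83.3 ± 5.80 to 170 ± 17.7 (SD, n = 3), a log2 difference of 0.96 (SE 0.20, adjusted p from limma = 0.000103). The upstream peak, chr17:8059259-8060434, held 265.4, 258.6 and 295 in G1 and 639.8, 855.8 and 761.7 in M-phase. It had the largest difference of the 12, from 273 ± 19.4 to 752 ± 108, which is 2.76-fold (log2 difference 1.43, SE 0.16, adjusted p from limma = 1.7e-11). Of all tested TSS peaks, 2.94% had a larger difference.

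PER2 and PER3 encode the other PER repressors. The PER2 peak, chr2:239196498-239198048, held 230.6, 235.9 and 237 in G1, the narrowest spread of the 12, and 414.4, 501 and 477.8 in M-phase. It rose by a log2 difference of 0.96 (SE 0.17, adjusted p from limma = 4.23e-06). The PER3 peak, chr1:7843408-7844840, held 293.3, 216.4 and 316 in G1 and 341.1, 431.4 and 453.3 in M-phase, with a gap between the groups smaller than the spread within either. Its log2 difference of 0.56 (SE 0.17, adjusted p from limma = 0.00917) was the smallest of those called, and 39.3% of all TSS peaks had a larger one. The PER3 call was lost without G1 replicate 2 (adjusted p from limma = 0.0666), without M-phase replicate 2 (0.0784) and without M-phase replicate 3 (0.0945).

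CRY1 and CRY2 encode the cryptochromes, the partners of PER proteins in repression. The CRY1 peak, chr12:107485920-107488058, held 330.1, 239.8 and 333 in G1 and 628.2, 631.2 and 701.1 in M-phase. It rose from 301 ± 53.0 to 653.5 ± 41.3 (SD, n = 3), a log2 difference of 1.11 (SE 0.16, adjusted p from limma = 5.96e-08). The CRY2 peak, chr11:45868495-45869799, held 213.7, 180.5 and 338 in G1 and 441.2, 443.4 and 514.4 in M-phase. G1 replicate 3 was the highest G1 library here and still lay below all M-phase libraries. The log2 difference was 0.96 (SE 0.18, adjusted p from limma = 1.13e-05).

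CIART, a repressor also named CHRONO, had a peak at chr1:150253809-150255195 with the 3 promoter E-boxes printed above and 5 E-boxes in all. It held 210.8, 189.8 and 254 in G1 and 306.9, 380.7 and 431.1 in M-phase. The groups were apart by less than in CRY1 or PER2, with a log2 difference of 0.75 (SE 0.18, adjusted p from limma = 0.000558).

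The nuclear receptors NR1D1 and NR1D2, which repress BMAL1, held the highest M-phase counts of the 12 peaks. The NR1D1 peak, chr17:38255120-38257581, held 395.7, 417.2 and 524 in G1 and 935.5, 1067.2 and 917.1 in M-phase. It rose from 446 ± 68.7 to 973 ± 81.9 (SD, n = 3), a log2 difference of 1.12 (SE 0.15, adjusted p from limma = 8.12e-09). The NR1D2 peak, chr3:23986387-23988176, held 352.9, 250 and 349 in G1 and 730.8, 878.5 and 896.9 in M-phase. It rose from 317 ± 58.3 to 835 ± 91.1, a log2 difference of 1.39 (SE 0.16, adjusted p from limma = 4.12e-11), and 3.66% of all TSS peaks had a larger one. The same peak contains the start of NKIRAS1, an inhibitor of NF-kappa-B signalling, so the reads cannot be assigned to 1 of the 2 genes. The same holds for the TSS peaks of PER2, CRY1, BMAL1 and CIART. Each contains a start of another annotated gene that is listed only by an Ensembl number.

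DBP, the output factor that binds D-boxes, had a peak at its canonical start and another at an internal start in intron 2. The internal peak, chr19:49137759-49139280, held 226.7, 189.1 and 202 in G1 and 327.9, 412.4 and 390.7 in M-phase. It rose by a log2 difference of 0.84 (SE 0.18, adjusted p from limma = 8.02e-05). The canonical peak, chr19:49140180-49141526, held 309.2, 207 and 304 in G1 and 311.8, 428.1 and 367.6 in M-phase. M-phase replicate 1 was only just above G1 replicate 1, and this was the 1 peak of the 12 that did not pass (log2 difference 0.43, 95% interval 0.08 to 0.78, adjusted p from limma = 0.0569). It passed without G1 replicate 3 (adjusted p from limma = 0.00815) and without M-phase replicate 1 (0.045). It also contains the start of SEC1P, a pseudogene.

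**Figure D2:**
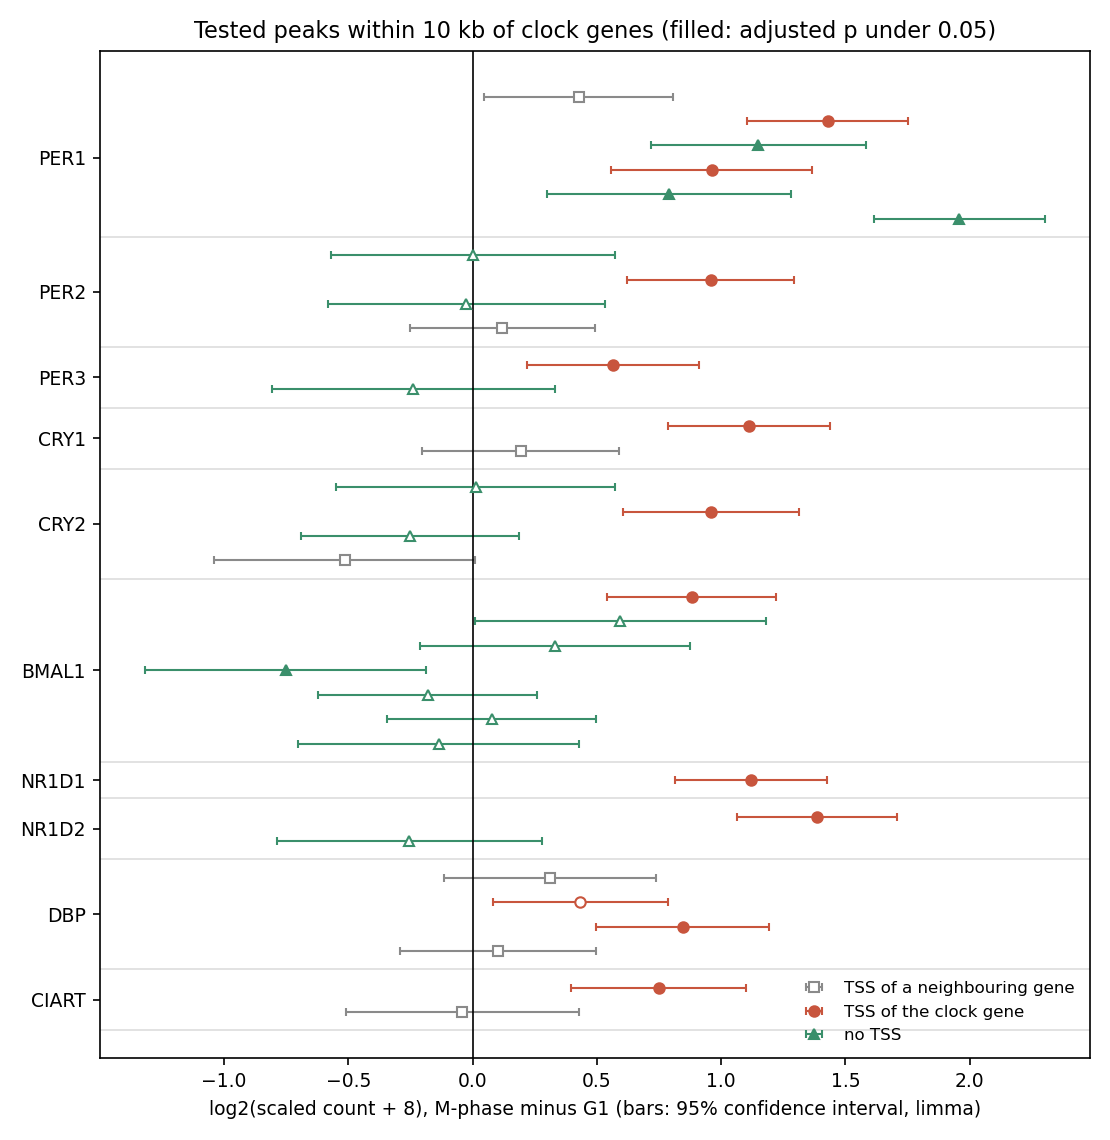
Log2 difference, M-phase minus G1 (horizontal axis), with its 95% interval, not adjusted for the number of peaks, for each of the 34 tested peaks, grouped by gene and ordered within a gene by distance from the start, upstream at the top. Filled symbols have an adjusted p under 0.05, and with the authors' scaling the clock gene TSS peaks (circles) lie between 0.43 and 1.43, though PER3 and canonical DBP turn negative under the loess scaling, whereas the peaks without TSS (triangles) lie on both sides of 0 and the neighbour TSS peaks (squares) between -0.51 and 0.43.

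None of the 7 TSS peaks of neighbouring genes passed the test, nor did 7891 of all 15500 tested TSS peaks. Their median log2 difference was 0.12 (-0.51 to 0.43), beside 0.39 over all tested TSS peaks. The 2 phases overlapped in 5 of the 7 neighbour peaks, and in 6631 of all 15500 tested TSS peaks. The peak of VAMP2, a synaptic vesicle protein whose gene lies upstream of PER1, went from 146 ± 23.2 to 198 ± 16.4 (SD, n = 3; log2 difference 0.43, adjusted p from limma = 0.088). At the other end, the MAPK8IP1 peak, beside CRY2, held 41.4 in G1 and 26.1 in M-phase on average (log2 difference -0.51, adjusted p from limma = 0.147). The HES6 peak beside PER2 held 185 and 200 (log2 difference 0.12, adjusted p from limma = 0.697). The peaks of MTERF2 (beside CRY1), SPHK2 and CA11 (beside DBP) and MRPS21 (beside CIART) had log2 differences of 0.19, 0.10, 0.31 and -0.04. The difference between the clock and the neighbour peaks was not tested, and the neighbour peaks had lower counts (median mean count 156).

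Among the 15 tested peaks without TSS, 3 rose and 1 fell, against 6.51% and 15.0% of all tested peaks without TSS. Their median log2 difference was 0.00 (-0.75 to 1.96), beside -0.05 for all tested peaks without TSS. The groups did not overlap in 4 of 15 (33.3% of all tested peaks without TSS). These peaks were low, with a median mean count of 19.5. The 3 that rose all lay in the window of PER1, the downstream one outside the gene body and beside tRNA genes.

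**Figure D3:**
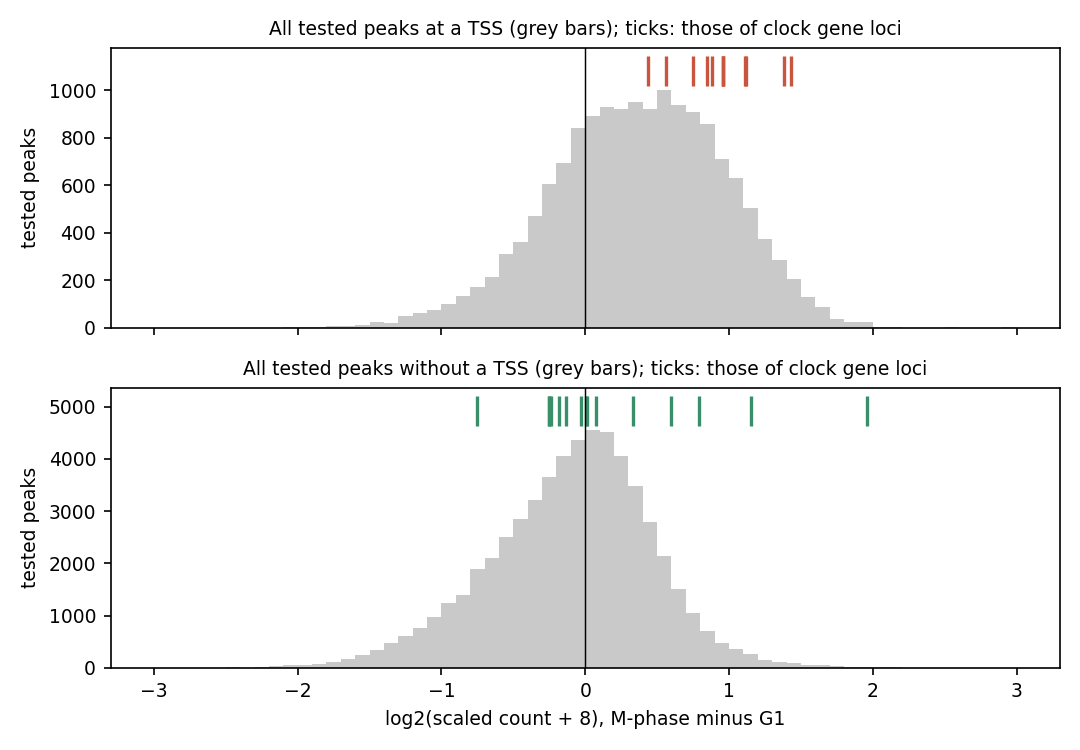
Number of tested peaks (vertical axis) by log2 difference, M-phase minus G1 (horizontal axis), as grey bars for all TSS peaks (top) and all peaks without TSS (bottom), with a tick for each clock gene peak. With the authors' scaling the 12 clock gene TSS peaks sit to the right of the TSS median of 0.39 (PER3 and canonical DBP are negative under the loess scaling). The peak downstream of PER1 and beside tRNA genes, at 1.96, stands at the far right of the peaks without TSS.

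Within introns, BMAL1 had the most peaks without TSS (7, of which 6 were tested). The peak in its intron 2 at chr11:13338040-13338338 was the only one of the 34 tested peaks called lower in M-phase, with 27.8, 21.9 and 30 in G1 and 11.5, 12.8 and 13 in M-phase. Its mean went from 26.6 ± 4.19 to 12.4 ± 0.814 (SD, n = 3), a log2 difference of -0.75 (SE 0.28, adjusted p from limma = 0.0378), and the call was lost when any library other than G1 replicate 2 was left out. The highest BMAL1 peak without TSS, chr11:13359824-13360956 in intron 3, held 101 ± 14.8 and 107 ± 18.8 (log2 difference 0.08, 95% interval -0.34 to 0.50, adjusted p from limma = 0.837).

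For the other genes the highest peak without TSS was as follows. The CRY2 peak in intron 3, chr11:45880974-45881646, held 86.8 ± 9.27 in G1 and 72.0 ± 13.2 in M-phase (log2 difference -0.25, 95% interval -0.69 to 0.19, adjusted p from limma = 0.438). The NR1D2 peak in intron 3, chr3:24000618-24001143, held 34.2 ± 10.4 and 26.7 ± 0.265 (log2 difference -0.25, adjusted p from limma = 0.536). The PER3 peak in intron 6, chr1:7858148-7858639, averaged 14.7 and 11.1 (log2 difference -0.24, adjusted p from limma = 0.595), and the PER2 peak upstream of the gene, chr2:239206339-239206541, held 13.0 ± 4.59 and 12.8 ± 3.02 (log2 difference 0.00, adjusted p from limma = 0.996). The CRY1 peak in intron 1, chr12:107437323-107437436, averaged 3.77 and 4.0 and was too low to test. NR1D1, DBP and CIART had no peak without TSS.

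The PER1 window held 3 peaks without TSS, and all 3 rose, as did both PER1 TSS peaks. The downstream one, described further below, lies outside the gene body and beside tRNA genes, so it may not belong to PER1. The peak at chr17:8057596-8057916, about 2 kb before the canonical start, held 63.6, 44.5 and 74 in G1 and 118.6, 166.5 and 144.4 in M-phase. It rose from 60.7 ± 15.0 to 143 ± 24.0 (SD, n = 3), a log2 difference of 1.15 (SE 0.22, adjusted p from limma = 1.55e-05). The peak is shown because it contains a full CRE, capitalised here, whose first base lies at -1935 from the canonical start.
PER1 upstream CRE, chr17:8057594-8057713, minus strand: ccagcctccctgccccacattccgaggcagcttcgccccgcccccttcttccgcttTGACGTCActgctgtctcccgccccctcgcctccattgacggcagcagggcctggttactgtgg
A CRE was found in 0.397% of all peaks when 321 bases, the width of this peak, were searched around each centre. The peak in intron 1, chr17:8054579-8054820, held 27.8, 28.9 and 45 in G1 and 58.1, 68 and 64 in M-phase (log2 difference 0.79, SE 0.25, adjusted p from limma = 0.0101). That call was lost without M-phase replicate 2 (adjusted p from limma = 0.0611).

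The largest difference at any clock gene locus was beyond the 3′ end of PER1, at chr17:8041605-8043081. This peak held 203.8, 130.5 and 180 in G1 and 618.8, 726 and 695.8 in M-phase, so the groups were far apart. The mean rose from 171 ± 37.4 to 680 ± 55.3 (SD, n = 3), which is 3.97-fold (log2 difference 1.96, SE 0.17, adjusted p from limma = 4.97e-16). Of all tested peaks without TSS, 0.0607% had a larger difference. That class holds every peak in which no GENCODE transcript starts. In the gene order of RefSeq, the genes next to PER1 on this side are those of a threonine and a serine tRNA, TRT-AGT5-1 and TRS-CGA1-1, 74 and 82 bp long. Such genes are read by RNA polymerase III, and the B box is one of their internal promoter elements. The peak held the B box core GTTCGANNC 2 times on the minus strand, in capitals here with the bases around it.
PER1 downstream left, chr17:8042186-8042284, minus strand: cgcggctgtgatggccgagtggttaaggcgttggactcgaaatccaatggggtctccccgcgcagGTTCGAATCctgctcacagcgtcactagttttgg
PER1 downstream right, chr17:8042757-8042855, minus strand: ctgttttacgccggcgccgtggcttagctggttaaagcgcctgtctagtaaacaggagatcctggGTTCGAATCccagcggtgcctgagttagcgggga
The core was found in 2.01% of all peaks (2605), and 161 peaks held it 2 or more times. Single matches also lay in the PER2 TSS peak and in the BMAL1 intron 3 peak at chr11:13354321-13355446, so the letters alone do not mark a tRNA gene. The downstream PER1 peak has 2 matches and tRNA genes as the next genes. It may therefore hold their starts and differ in kind from the peaks without TSS that it was ranked with. Reads with up to 3 places in the genome had been kept at 1 of them, so near-identical tRNA copies may share reads with this peak, and the share was not tested.

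**Figure D4:**
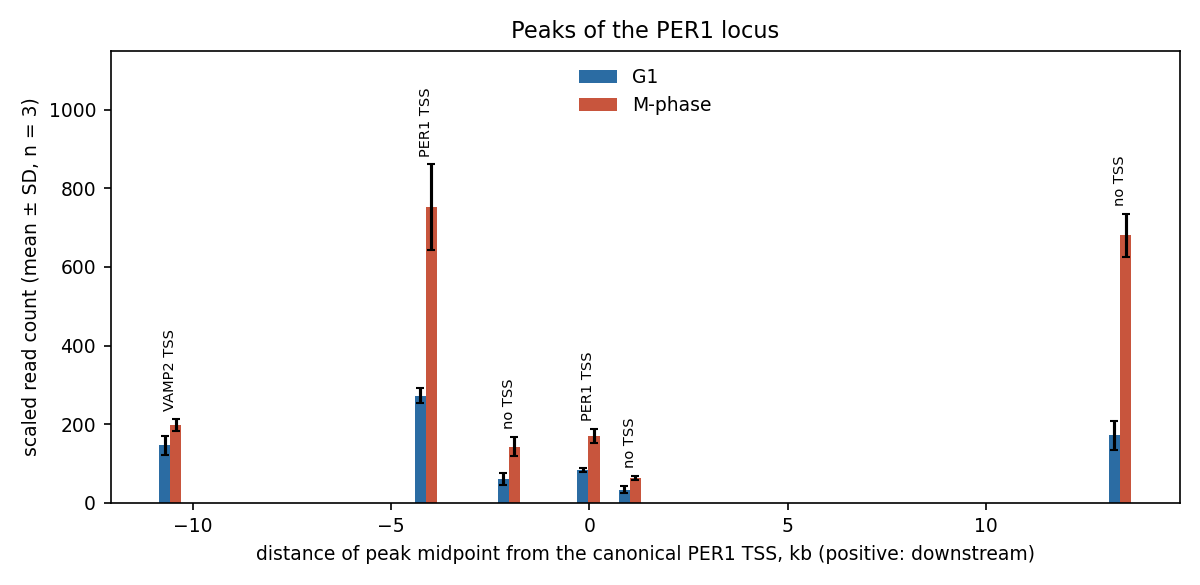
Mean scaled count (vertical axis; error bars, SD, n = 3 libraries) in G1 and M-phase of the 6 peaks around PER1, by the distance of the peak midpoint from the canonical start in kb (horizontal axis, positive downstream); bar widths are not to scale. The 5 peaks from the upstream start to beyond the 3′ end rose in M-phase, whereas the VAMP2 peak at -10.56 kb did not pass the test. The largest rise was in the downstream peak, which lies outside the gene body and beside tRNA genes.

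A list of other clock genes, chosen for their known roles, had TSS peaks at 15 genes. These genes held 18 TSS peaks, 17 of which were tested, and 10 rose, 1 fell and 6 did not pass (43.2% and 5.94% of all TSS peaks). The median log2 difference was 0.76 (-1.05 to 1.45). The largest was at CSNK1E, a kinase that phosphorylates PER proteins (chr22:38712249-38714587), with 190.9, 226.6 and 219 in G1 and 594.9, 620.9 and 565.4 in M-phase (log2 difference 1.45, adjusted p from limma = 2.57e-11). NFIL3, a repressor at D-boxes, followed with 210 ± 54.1 and 560 ± 49.9 (SD, n = 3; log2 difference 1.41, adjusted p from limma = 3.11e-10). Next came CSNK1D, the sister kinase, at chr17:80230618-80232091, with 156 ± 9.57 and 413.5 ± 27.0 (log2 difference 1.36, adjusted p from limma = 1.28e-09). Its other TSS peak, chr17:80204301-80205242, averaged 71.8 and 112 (log2 difference 0.63, adjusted p from limma = 0.0235). CLOCK, the partner of BMAL1, named after its values were seen, averaged 243 and 489 (log2 difference 1.0, adjusted p from limma = 1.91e-06).

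TEF, a D-box activator related to DBP, differed between its own starts. The peak at chr22:41762987-41763537 held 100.4, 66.4 and 72 in G1 and 40.4, 19 and 47.6 in M-phase, the only fall in the list (log2 difference -1.05, SE 0.25, adjusted p from limma = 0.000568). The peak at chr22:41776971-41778519 rose from 374 to 740 (log2 difference 0.97, adjusted p from limma = 6.24e-07). RORB and NPAS2, the next lowest, had log2 differences of -0.16 (adjusted p from limma = 0.732) and -0.13 (0.725). RORB is a receptor that acts at ROR elements and NPAS2 is a relative of CLOCK.

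How far the TSS differences went depended on how the libraries were scaled. The 12 clock gene TSS peaks held 0.0644 to 0.0746% of all reads in peaks in G1 and 0.104 to 0.116% in M-phase. Their share of the reads in peaks was thus higher in M-phase too. The share of all TSS peaks, whose median log2 difference was 0.39, was not computed. With equal totals in peaks, which lowered the median of all peaks to -0.23, 10 of the 12 rose, against 29.3% of all TSS peaks, and PER3 (log2 difference 0.22, adjusted p from limma = 0.203) and the canonical DBP peak (0.09) did not pass. With a loess fit of the difference on abundance, the median over the 12 was 0.23, against 0.06 over all TSS peaks, and 4 rose, against 21.3%. These 4 were both PER1 TSS peaks (0.70 at the canonical start and 0.59 upstream), CRY1 (0.28) and NR1D2 (0.49). PER3 and the canonical DBP peak went to -0.14 and -0.25 without passing the test. The peaks without TSS in the PER1 window kept log2 differences of 1.24 downstream, 1.0 at the CRE and 0.92 in intron 1 under this fit. All 3 passed.

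**Figure D5:**
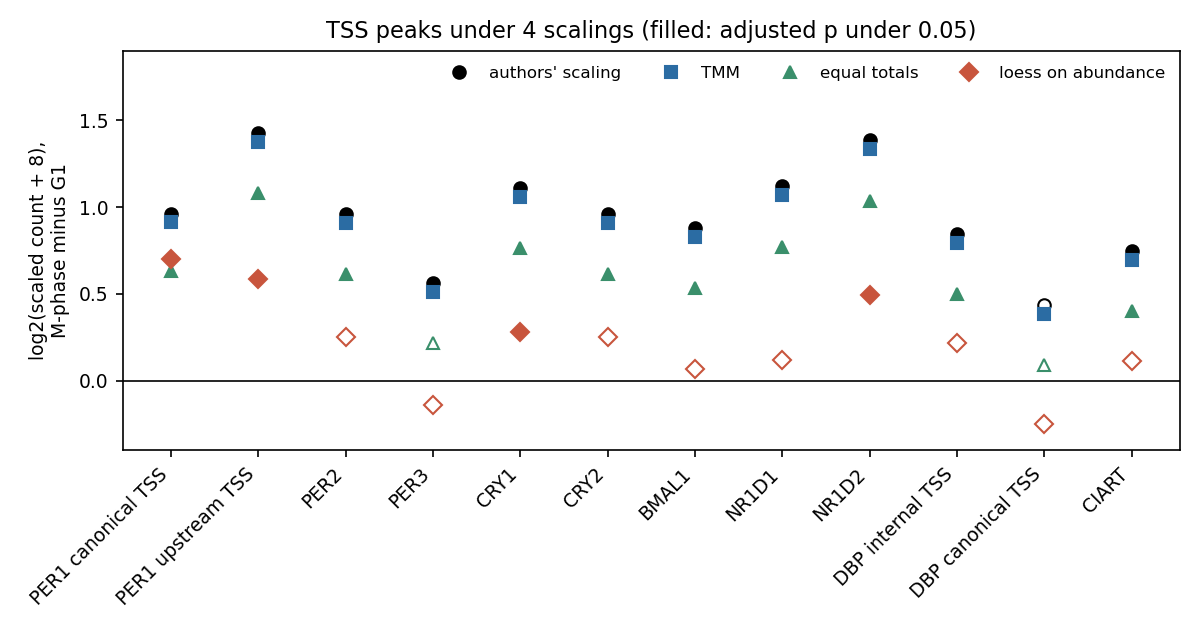
Log2 difference, M-phase minus G1 (vertical axis), of the 12 clock gene TSS peaks under the authors' scaling, TMM, equal totals in peaks and a loess fit on abundance, with filled symbols for an adjusted p under 0.05. The loess values are lower than those of the authors' scaling in all 12 peaks, and PER3 and the canonical DBP peak fall below 0.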

How the data were processed

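ATAC-seq libraries of T98G cells, 3 in G1 and 3 in M-phase, were compared. Per the study's methods, the authors trimmed adapters with cutadapt, mapped to hg19 with Rbowtie in QuasR (reads with up to 3 locations kept at 1), took out mitochondrial reads (samtools) and used macs2 to call broad peaks from the pooled replicates of each phase, duplicates kept. Tool versions and a shift for the transposase cut are not given in the sources used here. The deposited signal is a read count per peak, scaled down by the authors to the smallest library and rounded, so it is no raw count. Deposited log2 changes between the phases, which are the authors' own comparison, were not used. Judged from the scaled counts, their sign appeared opposite to the one in their name, M over G1. The cause was not tested, and all directions given here rest on the phase names of the count columns.

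A TSS peak overlaps the start of any GENCODE 44 transcript on GRCh37. Peaks with at least 10 (in the median-sized library) in at least 3 libraries and a total of at least 15 were kept (73121 of 129347). Differences of log2(scaled count + 8) were tested by limma (version 3.58.1, under R 4.3.3) with its trend option, adjusting p-values by Benjamini-Hochberg over all kept peaks with a threshold of 0.05, after the code was tested on simulated data. Log2 differences understate the change of low peaks. Named were all clock genes, each of their TSS peaks, each called peak, the highest peak without TSS per gene, and the 3 highest and 3 lowest TSS peaks of the other clock genes. For CSNK1D and TEF the other TSS peak of the gene was added. Members and lists were chosen with earlier results of these data known. A gene of the list of other clock genes is not reported here. Sequences and motifs were read from GRCh37 with pysam 0.24.0, and the background was the 300 bases before each protein-coding canonical start. Alternatives covered scaling, filter, pseudocount, TSS definition, window, replicate block and single libraries left out.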

Additional observations from a re-analysis of the deposited data

How the results depend on the processing

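Of 271 alternative values for the 21 named peaks, 234 kept their direction and side of the threshold, 19 lost a call in the same direction, 6 gained one and 12 turned direction, of which the PER3 TSS peak with the loess fit also lost its call. The number of clock gene TSS peaks higher in M-phase (11, against 43.2% of all TSS peaks) became 4 with the loess fit (against 21.3%). It was 10 to 12 under all other settings, including 10 to 12 with 1 library left out (against 34.4 to 49.5%). Loess gave negative values for the TSS peaks of PER3 (-0.14) and canonical DBP (-0.25), and took the calls of PER2 (0.25), CRY2 (0.25), BMAL1 (0.07), NR1D1 (0.12), internal DBP (0.22) and CIART (0.11). The cause was not tested.

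Of the peaks without TSS, 3 were higher, and 6 with a 50 kb window. The wider window takes in more peaks, so its counts have a larger denominator, which is not given here. The single one that was lower became 3 with equal totals, 2 with a 50 kb window, 0 with loess, 0 with no filter, and 0 to 1 with 1 library left out. With equal totals the CRY2 intron 3 peak also passed (-0.57) and the PER1 intron 1 peak did not (0.49). The PER2 upstream peak, at 0.00, went to -0.036 with TMM, -0.22 with equal totals and -0.14 to 0.17 with 1 library left out, and the BMAL1 intron 3 peak, at 0.08, went to -0.25 with equal totals, -0.12 with loess and -0.0043 to 0.22 with 1 library left out. For the other clock genes loess gave 6 TSS peaks higher and 3 lower, in place of 10 and 1. Of all TSS peaks 21.3% were higher under loess, and the share that was lower was not computed. Over all peaks, 52.2% of calls were higher, against 26.0% with equal totals (6342 higher and 18092 lower, in place of 10439 and 9548), 65.7% where all libraries had to reach 10, and 62.4% without G1 replicate 3.

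Libraries with the same replicate number did not deviate together (correlations of 0.0059, -0.0101 and 0.0284 over peaks), nor did every library correlate best with its own number. With the replicate block 12 clock gene TSS peaks were higher, against 44.3% of all TSS peaks. Canonical DBP passed with an adjusted p from limma of 0.0461, as it also did with TMM (0.04) and where all libraries had to reach 10 (0.0426). A planned edgeR test on recovered reads was not run, because rounding left too few values of M-phase replicates 1 and 2 on whole reads. Peaks that did not pass the filter on low values were too shallow to compare.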
